A study of Mus musculus with 2 samples.

Results

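The 10 genes described here encode the nonmuscle class II and class 18 myosin heavy chains, the myosin light chain kinases, and a targeting subunit of myosin phosphatase. They were chosen by name, as Myh9, Myh10, Myh14, Myo18a, Myo18b, Mylk, Mylk2, Mylk3, Mylk4 and Ppp1r12b, and all 10 were found among the 55536 named genes of the tables. Total RNA was sequenced from gastrocnemius, a fast muscle of the calf, of female B6CASTF1/J mice at postnatal day 10. These animals are F1 hybrids of a C57BL/6J and a CAST/EiJ parent, and the labels give no treatment or altered allele. There is 1 group of 2 libraries, replicates 1 and 2, each made from 300 ng of RNA. The tables held 35666448 expected counts on named genes in replicate 1 and 39650328 in replicate 2. The labels call them biological replicates from separate biosamples, give both the same donor identifier, and do not say that each came from 1 animal, so an SD over n = 2 measures the spread between these libraries, which may in part be technical. No test between conditions exists in this design, and no p-value is given.

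Nonmuscle myosin II forms bipolar filaments that pull on actin during adhesion, migration and cytokinesis, and its motor is switched on when its regulatory light chain is phosphorylated. Myosin light chain kinases add that phosphate, and those of smooth and skeletal muscle are activated by calcium and calmodulin. Myosin phosphatase, which consists of a catalytic PP1 subunit and a targeting subunit, removes the phosphate. In skeletal muscle fibres phosphorylation of the regulatory light chain adjusts force and does not switch contraction on. Class 18 myosins resemble myosin II in sequence but have lost most motor ATPase activity, and Myo18b is needed for sarcomere assembly in mice and fish.

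Levels are given as TPM, a transcript abundance in which reads are divided by transcript length and each library is scaled to the same total. They come from tables in the format of RSEM, unless a value is said to come from the tables in the format of kallisto. TPM of 1 or more in both libraries was called detected. By that rule 9 of the 10 genes were detected, against 52.3% of the 22015 nuclear protein coding genes. Mylk3 was the exception, and it too passed when TPM was rescaled over nuclear protein coding genes, at 1.17 ± 0.155 (SD, n = 2).

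On mm10 the class II genes are Myh9 (ENSMUSG00000022443.17) at chr15:77760587-77842175, minus strand; Myh10 (ENSMUSG00000020900.15) at chr11:68691559-68816632, plus strand; and Myh14 (ENSMUSG00000030739.18) at chr7:44605803-44670843, minus strand. The class 18 genes are Myo18a (ENSMUSG00000000631.20) at chr11:77763246-77865980, plus strand, and Myo18b (ENSMUSG00000072720.9) at chr5:112688876-112896362, minus strand. The kinase genes of smooth and skeletal muscle are Mylk (ENSMUSG00000022836.11) at chr16:34745210-35002420, plus strand, and Mylk2 (ENSMUSG00000027470.9) at chr2:152911352-152923068, plus strand. The other kinase genes are Mylk3 (ENSMUSG00000031698.14) at chr8:85324303-85386345, minus strand, and Mylk4 (ENSMUSG00000044951.15) at chr13:32700834-32783954, minus strand. The phosphatase subunit gene is Ppp1r12b (ENSMUSG00000073557.11) at chr1:134754658-134955942, minus strand.

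Several of these genes make alternative proteins, and the short exons that distinguish them are shown first. Their shares differed widely from exon to exon and, for some, between the kinds of table. Exon positions are on mm10, strand included, with GENCODE M21 models, and each sequence reads 5′ to 3′ on the gene's strand. In Myh10 a 30-base exon at chr11:68745935-68745964, plus strand, and a 63-base exon at chr11:68775365-68775427, plus strand, add the B1 and B2 inserts to loops of the motor head, and both inserts are known from neurons.
Myh10 B1 exon: caggaatcgcctaagcccgtgaaaccccag
Myh10 B2 exon: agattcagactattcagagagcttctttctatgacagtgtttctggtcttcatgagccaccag
In Myh14 a 24-base exon at chr7:44657417-44657440, minus strand, adds the C1 insert to the motor head.
Myh14 C1 exon: gcctccgtcagcaccatgtcttat
In Myo18a several coding exons vary between complete coding models, and 3 of them, of 36, 21 and 45 bases on the plus strand, are shown. They lie at chr11:77815856-77815891, chr11:77821530-77821550 and chr11:77854678-77854722.
Myo18a 36-base exon: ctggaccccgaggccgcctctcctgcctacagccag
Myo18a 21-base exon: agccccttgaggagcaagacg
Myo18a 45-base exon: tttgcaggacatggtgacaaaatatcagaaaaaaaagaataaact

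Among the nonmuscle class II heavy chains, Myh9 was the highest. Myh9 encodes the IIA heavy chain, abundant in fibroblasts, endothelium and blood cells, and its level was 68.5 TPM in replicate 1 and 54.1 in replicate 2 (61.3 ± 10.2, SD, n = 2). Myh10, the IIB heavy chain, stood at 15.4 and 12.8 TPM (14.1 ± 1.83). Myh14, the IIC heavy chain, stood at 10.3 and 9.45 TPM (9.89 ± 0.622). Myh9 exceeded both others in each library, and the values of the 3 genes did not overlap. Myh9 held 71.7% ± 1.31 of their summed TPM, Myh10 16.6% ± 0.309 and Myh14 11.7% ± 0.998. Within a library, Myh9 was above Myh10 by 2.11 ± 0.05 on the log2 scale. Myh10 was above Myh14 by 0.51 ± 0.10, but the kallisto-format tables gave -0.05 ± 0.45, with opposite signs in the 2 libraries. The order of Myh10 and Myh14 thus depended on the table, while Myh9 led in both.

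The nonmuscle chains were a small part of all class II heavy chain RNA in this tissue. Myh9, Myh10 and Myh14 together made 0.792% of it in replicate 1 and 0.562% in replicate 2. The fast chain Myh4 alone made 64.3% and 73.2%. Smooth muscle Myh11 stood at 10.6 and 8.79 TPM, close to Myh14. In bulk RNA fewer cells of a type and less RNA per cell cannot be told apart, so the levels do not say which cells held the nonmuscle chains.

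By counts, the transcript behind each class II gene was mostly a complete coding model. A complete model is a protein coding transcript whose mRNA the annotation does not mark as incomplete at either end. Such a model can still be short, as is Myh10-204, with 693 coding bases. Myh9 has 1 such model, Myh9-201, which held 95.1% ± 0.484 of the gene's counts and 71.2% ± 1.22 of its TPM. The short processed transcript Myh9-203, of 720 bases, held 2.64% of counts but 23.3% of TPM, because TPM divides by length. The kallisto-format tables gave Myh9-203 only 4.08%. For Myh10, Myh10-203 held 92.2% ± 1.47 of counts and 73.1% ± 0.587 of TPM. The kallisto-format tables gave Myh10-203 28.2% in replicate 1 and 85.1% in replicate 2, and gave Myh10-202, which starts translation in another first exon, 53.7% and 8.23%. The RSEM-format tables put Myh10-202 at 0 in both libraries, so the first exon of Myh10 was not settled by these tables. The 3′ processed transcript Myh10-206 held 15.7% ± 5.20 of RSEM-format TPM, and 0 in the kallisto-format tables.

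The neuronal inserts of Myh10 shown above had low estimates. Among complete Myh10 models, the single form with both the B1 and the B2 exon held 2.35% of TPM in replicate 1 and 0 in replicate 2, with 57 and 0 estimated counts. The kallisto-format shares were 3.63% and 1.51%. For Myh14, the form with the C1 exon, Myh14-201, held 17.5% in replicate 1 and 4.67% in replicate 2, on 193 and 59 counts. The kallisto-format shares of the C1 form were 4.76% and 0.00378%. Forms without the insert led in both genes, both libraries and both kinds of table. The main Myh14 form, Myh14-202, held 82.0% ± 10.5 of counts. A 471-base model with an incomplete end, Myh14-207, held 1.68% of counts and 42.9% ± 5.06 of kallisto-format TPM. In those tables it was below Myh14-202 in replicate 1 and just above it in replicate 2, at 46.5% against 45.9%. The processed transcript Myh14-205 held 19.8% and 15.4% of RSEM-format TPM.

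**Figure D1:**
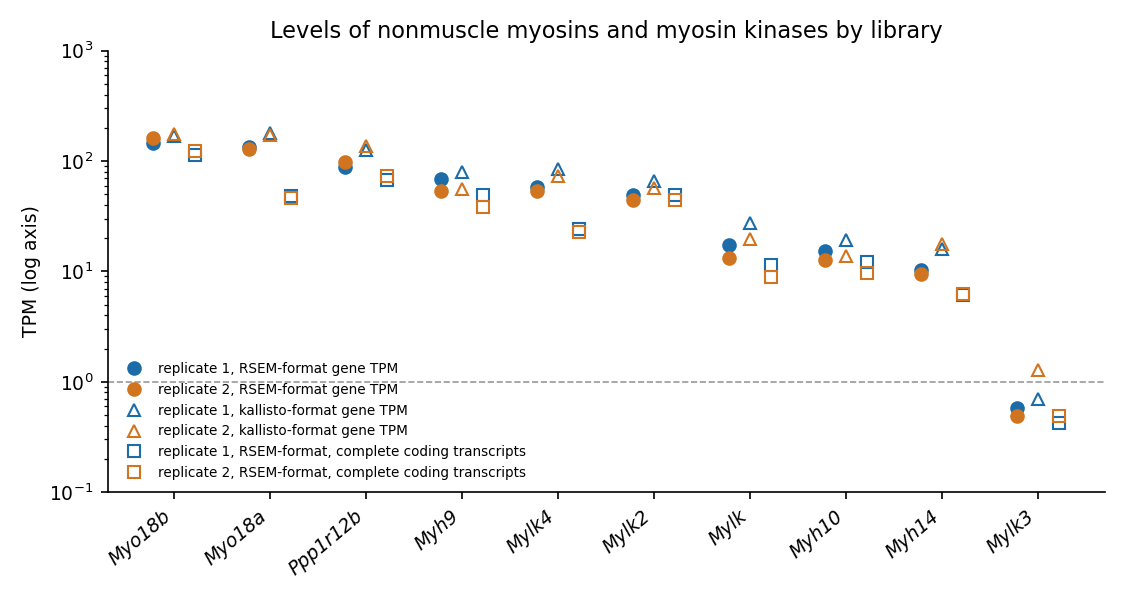
TPM of each gene on a log axis, by library: filled circles give RSEM-format gene TPM, triangles kallisto-format gene TPM, and squares the RSEM-format TPM of complete coding transcripts alone. The dashed line marks TPM 1. Myo18b leads on the circles and squares, Mylk3 lies lowest on all 3 measures, and Myo18a and Mylk4 drop most from circles to squares. The kallisto-format values lie above the RSEM-format ones for all 10 genes on average.

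By gene TPM the class 18 myosins were the highest of the 10 genes. Myo18b stood at 145 TPM in replicate 1 and 163 in replicate 2 (154 ± 13.1), above 96.9% of detected nuclear protein coding genes. Myo18a, which in other cells links the Golgi membrane to actin, stood at 134 and 129.8 TPM (132 ± 2.81), above 96.3%. Myo18b was the higher in each library, by 0.22 ± 0.15 on the log2 scale. The kallisto-format tables gave -0.04 ± 0.07, with Myo18a higher in replicate 1. On complete coding models alone Myo18b was higher by 1.32 ± 0.12, at 113 and 123 TPM against 47.9 and 46.5 for Myo18a. Ppp1r12b, at 67.9 and 73.5 TPM, was then above Myo18a, as were Myh9 and Mylk2 in replicate 1. The gap between Myo18b and Myo18a was thus wider once transcripts with incomplete ends and noncoding forms were left out.

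Within the list of 24 unconventional myosins, 15 were detected, and the class 18 pair stood apart from the rest. The next genes were Myo10, a filopodial motor, at 31.4 and 23.9 TPM, and the membrane-linked Myo1c, at 28.8 and 24.6 TPM. No value of Myo18a or Myo18b overlapped any of the other 22 genes, also when Myo18a was counted on complete coding models. Myo7b was the lowest, with 0 and 1 estimated counts.

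**Figure D2:**
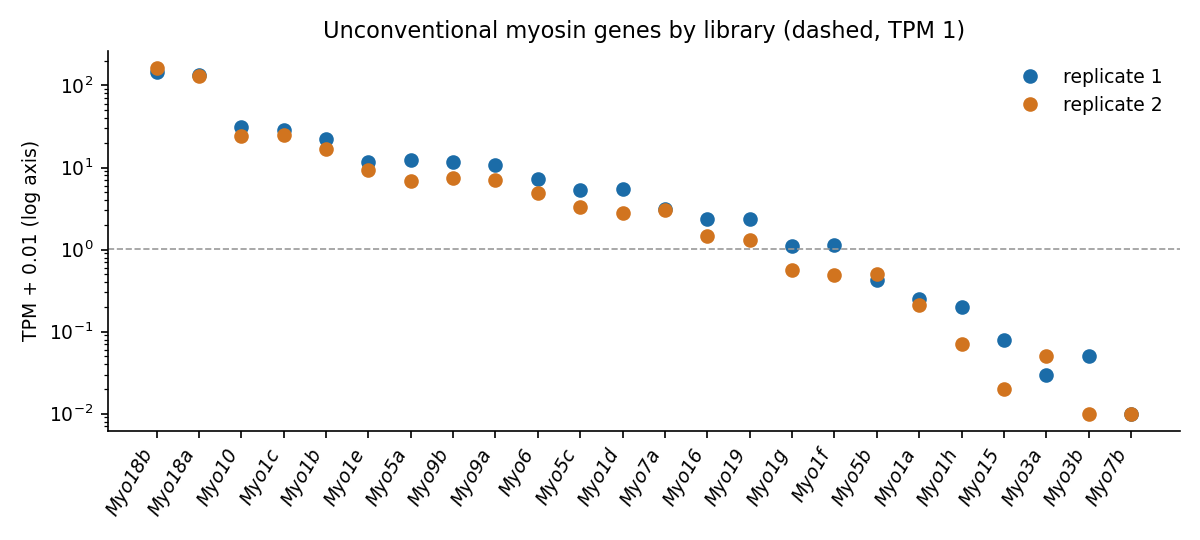
TPM plus 0.01, on a log axis, of the 24 unconventional myosin genes in replicate 1 and replicate 2, ordered by mean. The lowest value of the class 18 pair is 129.8 TPM and the highest of the other genes 31.4.

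The RNA of Myo18a was divided among many transcripts. Its 24 annotated transcripts include 14 complete coding models. Those 14 held 73.3% ± 0.821 of counts and 35.8% ± 0.0328 of TPM. Myo18a-217, a 1076-base model with an incomplete 3′ end, took 37.6 and 43.0 TPM. Myo18a-215, a 2014-base model with an incomplete 5′ end, took 32.8 and 34.0 TPM. They held 30.6% ± 3.54 and 25.4% ± 1.21 of the gene's TPM, and 34.8% and 24.4% in the kallisto-format tables. Whether these short models stand for separate RNAs or for parts of unannotated long ones was not tested.

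The 2 main protein classes of Myo18a differ at the N terminus: long forms start upstream and carry a PDZ domain, a module that binds other proteins, while short forms start at an internal first exon and lack it. Long forms begin translation at position 77777316 of chromosome 11 and short forms at 77801375. The split covers complete models only. The incomplete model Myo18a-217 has an annotated translation start at 77807902 and belongs to neither class. At 37.6 and 43.0 TPM it was above the complete short forms together in each library. The 8 complete long forms held 11.8 TPM in replicate 1 and 9.45 in replicate 2, and the 5 complete short forms held 36.0 and 37.1. Short forms thus made 77.5% ± 3.12 of complete coding TPM, and 54.1% ± 5.66 in the kallisto-format tables. They were above the long forms in each library by both kinds of table. The leading short form was Myo18a-224 in the RSEM-format tables, at 22.9 and 24.0 TPM, and Myo18a-205 in the kallisto-format tables, at 20.1 and 20.6 TPM.

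RefSeq gives Myo18a an upstream and an internal start site. The windows from 250 bases before to 50 bases after them are shown because RNA from the 2 starts differed so much. The upstream RefSeq start, 77777235, is where the exon 13.989 kb into the leading long form, Myo18a-208, begins. For that form the bases before this start are therefore intron and not promoter. Both are on GRCm38.p6, plus strand: chr11:77776985-77777284 for the upstream start and chr11:77801048-77801347 for the internal one. The capitals mark matches on either strand to CANNTG, the E-box letters that myogenic factors can bind.
Myo18a upstream: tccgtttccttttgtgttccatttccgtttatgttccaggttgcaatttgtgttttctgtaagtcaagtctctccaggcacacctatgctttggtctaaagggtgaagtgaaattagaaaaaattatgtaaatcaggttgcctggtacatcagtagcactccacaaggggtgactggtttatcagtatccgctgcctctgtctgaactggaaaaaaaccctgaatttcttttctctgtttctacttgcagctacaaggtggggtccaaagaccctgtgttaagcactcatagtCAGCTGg
Myo18a internal: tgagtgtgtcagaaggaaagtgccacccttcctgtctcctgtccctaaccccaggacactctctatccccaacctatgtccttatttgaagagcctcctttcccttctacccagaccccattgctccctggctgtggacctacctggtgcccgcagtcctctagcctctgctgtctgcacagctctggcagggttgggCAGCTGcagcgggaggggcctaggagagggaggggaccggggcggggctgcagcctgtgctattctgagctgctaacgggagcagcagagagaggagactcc
The upstream window has 43.0% G and C with 3 CpG, and the internal window has 60.7% with 5, beside medians of 52.7% and 7 over 32851 RefSeq promoters. Each window holds 1 CANNTG match, as do 72.3% of those promoters at least once. Neither holds TATAAA, which 13.6% of promoters hold, nor a CArG box or MEF2 site, held by 1.63% and 3.19%. Transcripts with 5′ ends within the internal group, 77801298 to 77801375, held 58.4% ± 4.68 of Myo18a TPM. Those with 5′ ends from 77777265 to 77777316, beside the upstream RefSeq start, held 0.333% ± 0.417. In the kallisto-format tables the internal group held 54.5% ± 3.36 and this upstream group 4.28% ± 0.390. The farthest upstream group, which begins at the gene's first annotated base and includes the leading long form Myo18a-208, held 7.82% ± 0.836, and 9.25% ± 1.32 in the kallisto-format tables.

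**Figure D3:**
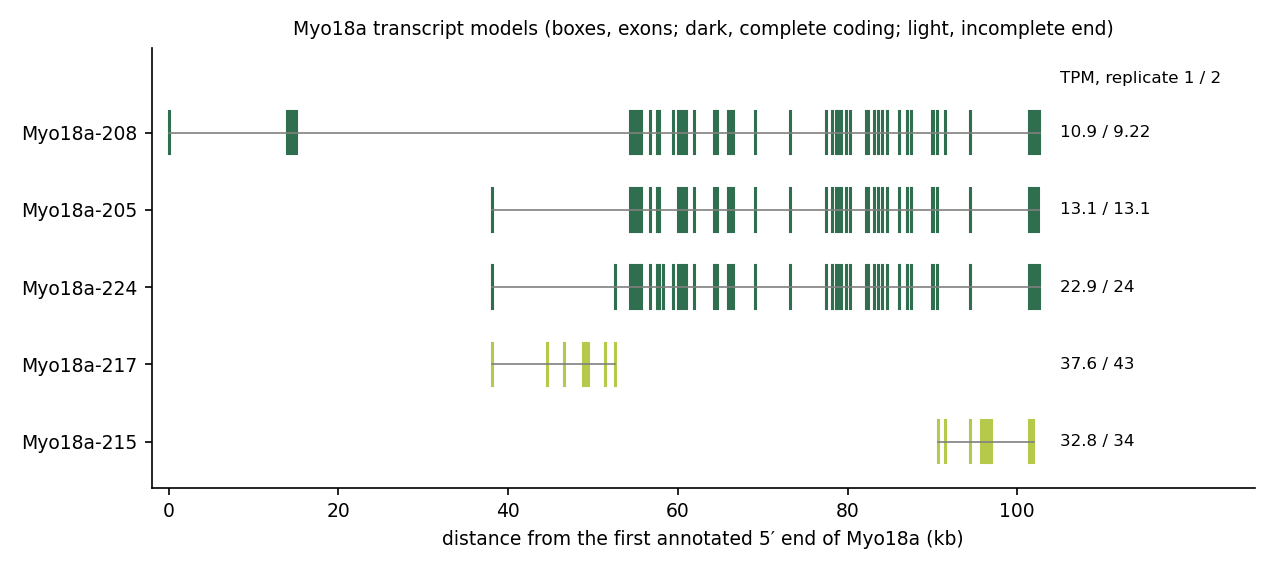
Exons of 5 Myo18a models against distance in kb from the gene's first annotated 5′ end, with the TPM of replicates 1 and 2 at the right. The long form Myo18a-208 has the lowest TPM of the 5, and the 2 short models with an incomplete end have the highest.

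Of the Myo18a exons shown above, the 36-base and 21-base exons had like shares of complete models in the RSEM-format tables. The 45-base exon had a lower one. Incomplete models are left out, though Myo18a-217, at 37.6 and 43.0 TPM, ends in the 36-base exon. Myo18a-215, at 32.8 and 34.0 TPM, holds the 45-base exon. Counting them would raise the shares of those 2 exons, so this order is that of complete models only. The 36-base exon was in 50.4% ± 1.75 of complete coding TPM, and in 27.4% ± 13.1 by the kallisto-format tables. The 21-base exon, which is in Myo18a-224 alone, was in 49.7% ± 2.62 and in 16.5% ± 10.6. The 45-base exon was in 21.7% ± 2.69 and in 41.5% ± 7.43. A shorter exon of 12 bases, at chr11:77822663-77822674, has an overlapping 9-base version. Each was set only against the 2 complete models with neither version, so their shares are not parts of one total. On that measure the 12-base version was in 44.7% ± 3.88 and in 61.6% ± 8.72. The 9-base version, which is in Myo18a-224 alone, was in 64.2% ± 0.791 and in 32.5% ± 12.7. The libraries differed by little within the RSEM-format tables, but the kinds of table differed for the 36-, 21- and 45-base exons by more than the SD of the RSEM-format shares.

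Myo18b was simpler. Its 1 complete coding model, Myo18b-201, held 90.6% ± 0.359 of counts, 76.4% ± 1.94 of TPM and 96.6% ± 1.46 of kallisto-format TPM. The processed transcript Myo18b-202 held 26.1 and 37.0 TPM, and 0 and 0.103 by the kallisto-format tables. The level of this form thus depended wholly on the kind of table.

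**Figure D4:**
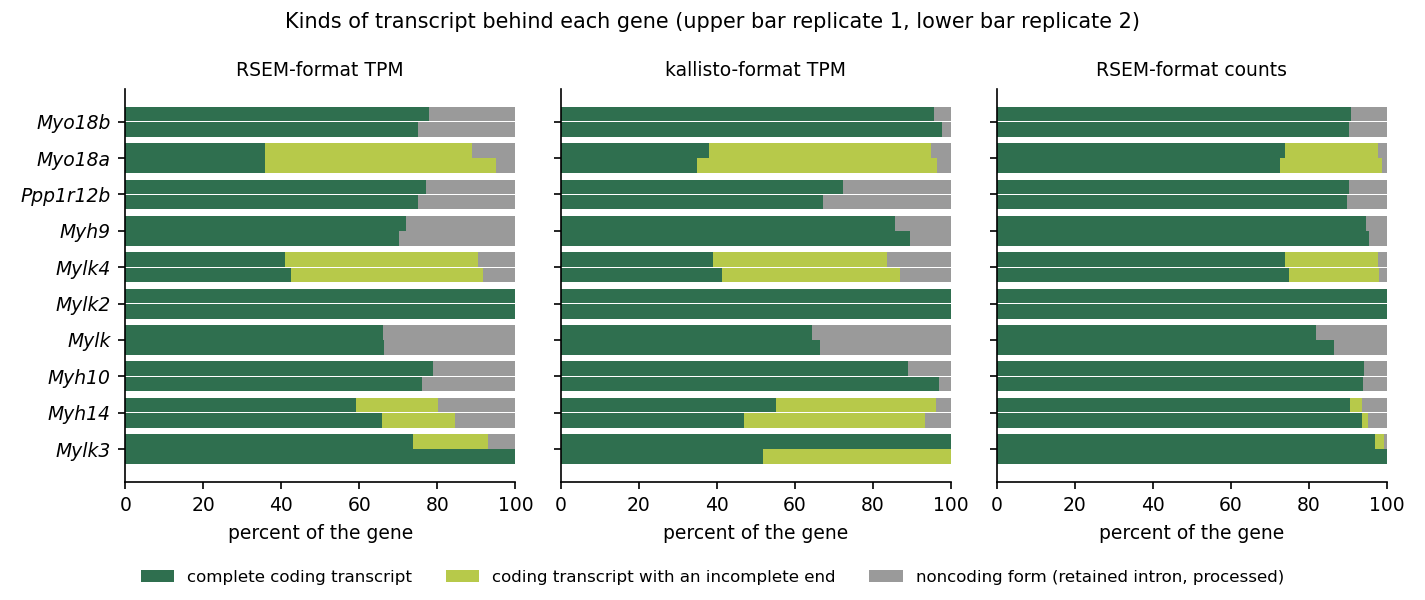
Percent of each gene held by complete coding transcripts, coding transcripts with an incomplete end, and noncoding forms, as RSEM-format TPM, kallisto-format TPM and RSEM-format counts, with replicate 1 above replicate 2. Complete coding transcripts hold at least 72.7% of counts of every gene in each library, but 35.8% of RSEM-format TPM for Myo18a and 41.6% for Mylk4.

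Of the 4 light chain kinases, 2 made most of the RNA. Mylk4, a kinase found in heart and skeletal muscle, stood at 58.6 TPM in replicate 1 and 54.0 in replicate 2 (56.3 ± 3.32). Mylk2, the skeletal muscle kinase of the fast regulatory light chain, stood at 49.4 and 44.2 TPM (46.8 ± 3.70). Mylk, the smooth muscle and nonmuscle kinase, stood at 17.2 and 13.3 TPM (15.3 ± 2.72). Mylk3, the cardiac kinase, stood at 0.580 and 0.490 TPM on 40 and 48 estimated counts. The 4 genes kept this order in both libraries with no overlap. Mylk4 held 47.4% ± 1.11 of kinase TPM, Mylk2 39.4% ± 0.132, Mylk 12.8% ± 1.23 and Mylk3 0.449% ± 0.0165.

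The lead of Mylk4 over Mylk2 rested on a model with an incomplete end. On gene TPM Mylk4 was above Mylk2 by 0.27 ± 0.03 on the log2 scale, and by 0.36 ± 0.00 in the kallisto-format tables. On expected counts of the genes, not divided by length, Mylk4 was above by 0.37 ± 0.06. On complete coding models alone it was the lower one, by -1.00 ± 0.07, and Mylk2 then held 57.9% ± 0.153 of the kinase TPM. That total includes the short model Mylk-203, which lies where a noncatalytic product of Mylk is encoded, as described below. Mylk4-204, a 1541-base model with 1429 coding bases and an incomplete 3′ end, held 49.5% ± 0.120 of the gene's TPM on 23.3% ± 0.480 of its counts. The complete model Mylk4-201, of 5571 bases with 1161 coding, held 41.6% ± 1.12 of TPM on 74.5% ± 0.656 of counts. The retained-intron form Mylk4-203 held 1.90% of TPM, and 9.76% in the kallisto-format tables. Mylk2 has a single annotated transcript of 2951 bases, Mylk2-201, so no such choice arises for it.

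Mylk4 RNA was divided between 3 annotated starts. Transcripts from the first, at 32783954 on chromosome 13, held 6.97% ± 1.28 of its TPM. The complete model starts 2238 bases farther on, and the third group, 7405 bases on, held 51.4% ± 0.157. The RefSeq window lies at the first of these starts, on GRCm38.p6 at chr13:32783915-32784214, minus strand, and is shown because it is the only window among the matched ones of these genes with a MEF2 site, which binds a muscle transcription factor family. Capitals mark 4 CANNTG matches and, in the stretch of 10 letters, the MEF2 site, which overlaps none of them.
Mylk4: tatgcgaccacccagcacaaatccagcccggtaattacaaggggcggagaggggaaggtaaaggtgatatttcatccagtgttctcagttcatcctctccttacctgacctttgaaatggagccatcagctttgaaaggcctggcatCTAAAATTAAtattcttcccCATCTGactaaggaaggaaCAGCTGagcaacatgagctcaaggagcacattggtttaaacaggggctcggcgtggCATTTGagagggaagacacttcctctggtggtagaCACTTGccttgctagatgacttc
A MEF2 site is in 3.19% of all promoters, and the start at this window carried the smallest share of Mylk4 TPM.

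Mylk makes a long kinase and, from a start inside the gene, a short noncatalytic protein of the C terminus called telokin that is known from smooth muscle. The full-length model Mylk-201 stood at 6.89 and 5.75 TPM and held 75.4% ± 3.98 of the gene's counts. Mylk-203, a 3-exon model at the 3′ end with 477 coding bases, lies where telokin is encoded and stood at 4.49 and 3.12 TPM. It held 24.8% ± 1.95 of Mylk TPM, and 33.5% ± 1.36 in the kallisto-format tables, where it was above Mylk-201 in replicate 1 and below it in replicate 2. The retained-intron form Mylk-207 stood at 2.76 and 1.35 TPM. The processed form Mylk-204, in the middle of the gene, stood at 2.07 and 2.83 TPM. Noncoding forms made 33.7% of Mylk TPM in all.

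Beside Mylk, all 6 smooth muscle marker genes were detected. Their TPM summed to 359 in replicate 1 and 424 in replicate 2, led by the actin gene Acta2 at 229 and 314, Smtn at 87.7 and 68.9, and Tagln at 28.6 in both. Mylk was above Myh11, the smooth muscle heavy chain, by 0.65 ± 0.06 on the log2 scale. Which cells the Mylk RNA came from was not tested.

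Mylk3 was at the edge of what these libraries could measure. Its kallisto-format level was 0.705 and 1.28 TPM, with the libraries in the opposite order from the RSEM-format values. Its forms could not be ranked: Mylk3-203 held 40.2% and 82.5% of the gene, and 72.2% and 45.4% by the kallisto-format tables. Mylk3-201 held 33.3% and 17.5%, and the incomplete Mylk3-204 held 19.9% and 0, or 0 and 48.1% by the kallisto-format tables. Of 5 cardiac muscle markers 1 was detected, the heavy chain gene Myh6 at 47.3 and 37.3 TPM, and Tnni3 had 10 and 18 counts. The level of Myh6 depended on the kind of table, with a mean of 22.4 TPM in the kallisto-format tables. Of the others, Nppb and Myl7 were at 0 counts in both libraries, where 3 counts correspond to 0.0841 and 0.0757 CPM. Nppa had 1 and 0 counts.

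Ppp1r12b encodes MYPT2, the myosin phosphatase targeting subunit of striated muscle. It stood at 88.2 TPM in replicate 1 and 98.0 in replicate 2 (93.1 ± 6.94), above 94.7% of detected genes. The broadly expressed Ppp1r12a stood at 29.0 and 20.8 TPM, and Ppp1r12c at 23.3 and 15.8 TPM. Ppp1r12b was above both in each library, by 1.92 ± 0.45 and 2.27 ± 0.50 on the log2 scale, and held 67.8% ± 7.09 of the TPM of these 3 targeting subunits. Its share was 62.8% in replicate 1 and 72.8% in replicate 2, where Ppp1r12a and Ppp1r12c were lower and Ppp1r12b higher by TPM.

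Ppp1r12b-201, with 2928 coding bases, held 84.0% ± 0.213 of the gene's counts and 63.9% ± 0.0707 of its TPM. Ppp1r12b-209 adds a 181-base exon near the 3′ end at chr1:134765897-134766077, minus strand, and has 2976 coding bases. That exon was in 14.8% ± 1.33 of the TPM of the complete forms that span it, and in 15.5% ± 3.03 by the kallisto-format tables. The processed transcript Ppp1r12b-208, from an internal start, stood at 12.3 TPM in replicate 1 and 18.9 in replicate 2. It was also higher in replicate 2 in the kallisto-format tables, at 24.8 and 37.8 TPM.

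The genes around these enzymes were present throughout. All 10 genes of the myosin phosphatase list were detected, led by the PP1 catalytic subunit genes Ppp1cb at 156 and 166 TPM and Ppp1ca at 149.9 and 142 TPM. The inhibitor gene Ppp1r14b followed at 116 and 104 TPM. RNA levels do not say which PP1 catalytic subunit is part of myosin phosphatase. The 3 calmodulin genes, which encode the calcium sensor of the smooth and skeletal muscle kinases, summed to 426 and 480.1 TPM.

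Myosin light chains, of which the kinases phosphorylate the regulatory ones, differed widely in level. The 5 nonmuscle and smooth muscle light chain genes were all detected, led by Myl12a, a nonmuscle regulatory chain, at 308 and 298 TPM, Myl6, an essential chain, at 158 and 134, and Myl9, a regulatory chain of smooth muscle, at 95.7 and 101. The fast skeletal regulatory chain Mylpf, substrate of Mylk2, stood at 20396 and 22876 TPM. The slow chain Myl2 stood at 319 and 287 TPM and Myl10 at 3.17 and 2.66 TPM, while Myl7, of the atrium, was at 0 counts in both. All 5 skeletal muscle markers were detected.

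Between the 2 libraries none of these genes differed by as much as 1.5-fold after TMM scaling. The ratio of replicate 2 to replicate 1 was computed with that scaling, which matches the bulk of genes between libraries, for genes with a mean count of 100 or more. Of the 9 members with that depth, 0 passed 2-fold, against 1.02% of 11760 genes, of which 0.808% were higher in replicate 1 and 0.213% in replicate 2. Also, 0 passed 1.5-fold, against 4.45%. The highest ratios were those of Ppp1r12b, 0.42 on the log2 scale, from 16566 and 20840 counts, and Myo18b, 0.41, from 28583 and 35590 counts. The lowest were Myh9, -0.11, from 10761 and 9370 counts, and Mylk, -0.09, from 2068 and 1822 counts. The median of the 9 was 0.19, beside 0.08 for all 11760 genes.

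The direction of these small differences depended on the scaling. With TMM 6 of the 9 genes were higher in replicate 2, and with spike-in totals 2 were. Scaling by spike-in totals moved the median of all genes to -0.31 and that of the members to -0.20. Of the 9, Ppp1r12b, Myo18b, Myo18a, Myh14, Mylk4 and Mylk2 lay above the median of all genes with TMM, and Myh10, Mylk and Myh9 below it. A change of scaling shifts all genes alike, so this position can change only with the counts used, and it was the same with kallisto-format counts.

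Markers of other tissue also differed between the libraries by TPM. The 5 bone markers summed to 283 TPM in replicate 1 and 2.43 in replicate 2, where Ibsp and Bglap were at 0 counts, and none was detected in both. The 5 leukocyte markers summed to 51.8 and 34.2 TPM, and the 5 fibroblast markers to 5478 and 3443 TPM, of which the collagen gene Col1a1 made 3542 and 1887. The median TMM-scaled log2 ratio was -7.22 for the bone list, -0.29 for the leukocyte list and -0.08 for the fibroblast list. The 5 endothelial markers summed to 178 and 157 TPM and the 5 Schwann cell markers to 418 and 357 TPM, all detected. With TMM, however, all 5 endothelial markers were higher in replicate 2. Their median log2 ratio was 0.08, the same as for all genes, and that of the Schwann cell list was -0.01. The skeletal muscle markers summed to 62448 and 72025 TPM, with a median TMM-scaled log2 ratio of 0.50. By TPM the sums of the bone, leukocyte, fibroblast, endothelial and Schwann cell markers were higher in replicate 1, as were all of the 10 genes except Myo18b and Ppp1r12b, the skeletal muscle kinases included. The sum of the skeletal muscle markers was higher in replicate 2, as were Myo18b and Ppp1r12b. With TMM only Myh9, Mylk and Myh10 of the 10 genes were higher in replicate 1, at -0.11, -0.09 and -0.01 on the log2 scale. The part of other cells in these gene differences was not tested.

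**Figure D5:**
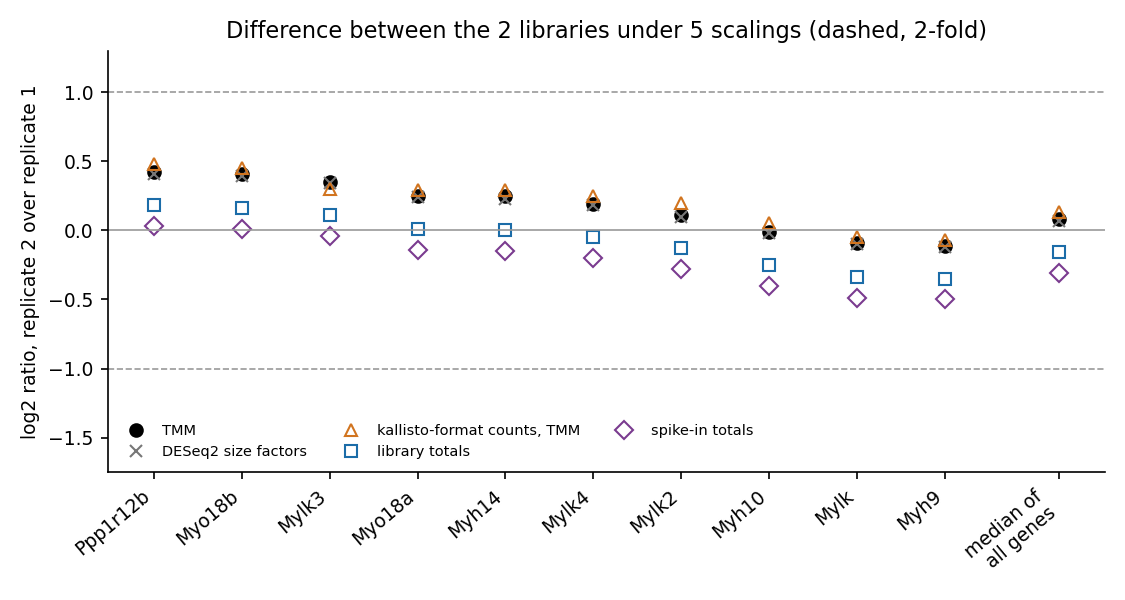
Log2 ratio of replicate 2 over replicate 1 for each gene under 5 scalings, with the median over 11760 genes at the right. Dashed lines mark 2-fold, which no gene reaches, and the spike-in scaling lies lowest for every gene.

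The kinds of table were also compared after both were rescaled over nuclear protein coding genes, since the median gene was 0.54 higher on the log2 scale in the kallisto-format tables as deposited. Of the 9 detected members 0 differed by 1.5-fold or more the same way in both libraries, against 4.23% of detected genes. Their median log2 ratio of kallisto-format to RSEM-format TPM was -0.27, beside -0.16 for all detected genes.

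Few sequence words of these genes were shared with others. Of the 31-base words of Myh9-201, 1.81% also occur in another gene, mostly Myh10, Myh11 and Myh14, and of those of Myh10-203, 1.38%. For Mylk4-201 it was 2.12%, spread over 711 genes. For the other 7 genes it was at most 0.346%, each taken at the complete coding transcript with the most counts in replicate 1. Other transcripts were not examined in this way. Genes on the opposite strand overlap exons of Myh14, Myo18b, Mylk and Ppp1r12b, and all were at 0.280 TPM or less.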

How the data were processed

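Total RNA libraries with ribosomal RNA reduced, stranded preparation and ERCC spike-ins were made from gastrocnemius, per the labels. The build was mm10 with GENCODE M21, per the text deposited beside the tables; tool names and versions were not stated there, and tables are named by their column format. Expected counts in the deposited RSEM-format tables, and estimated counts in the kallisto-format tables, assign reads shared by several transcripts with a statistical model, per the file headers. TPM values are deposited for genes and transcripts, with spike-ins in the total, and the percent of a gene held by a transcript is also a deposited column. The upper bounds of the deposited TPM intervals were treated as signal and not used in the text.

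Kallisto-format values were summed per gene. Rows that name no gene held 0.000139% and 7.51e-06% of counts and were left out. Spike-ins held 0.720% and 0.798%. Expected counts were rounded, and log2 ratios used edgeR 4.0.16 (TMM, prior count 0.5) under R 4.3.3; DESeq2 1.42.0 size factors, library totals, spike-in totals and kallisto-format counts were alternatives. Tables and figures used Python 3.11.15, pandas 2.3.3, numpy 2.4.6 and matplotlib 3.10.9. Start groups join 5′ ends up to 1000 bases apart. Exon shares are over complete coding models that hold the exon or skip it, for exons up to 200 bases. Models with an overlapping version of the exon are left out. The ratio step was tested on simulated data.

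Sequences of promoters are from RefSeq on GRCm38.p6, in which 8 of the 10 genes matched. The text names all 10 genes, their transcripts with at least 10% of the gene in a library by either kind of table, and may name of each list the 3 highest and any at 0, some of which are left out; other forms named, such as Myo18a-208, and single genes of the lists outside these were chosen after their values were seen, as was the restriction to complete coding models. The members and lists were chosen with earlier results of these data known. Both libraries entered every value, and SD is over n = 2. 1 list of related genes is not reported here.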

Additional observations from a re-analysis of the deposited data

How the results depend on the processing

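The share of Myh9 among nonmuscle heavy chains, 71.7%, was 66.7% in the kallisto-format tables and 69.4% over protein coding transcripts only, and it lay between 70.8% and 72.7% when either replicate was left out. The share of Mylk2 among the kinases, 39.4%, was 37.2% in the kallisto-format tables, 35.9% by expected counts not divided by length, 43.0% over protein coding transcripts and 57.9% over complete coding transcripts, a setting added after seeing the data; it lay between 39.3% and 39.5% when either replicate was left out. The number of members detected was 9 without either replicate and 10 with TPM rescaled over nuclear protein coding genes, where Mylk3 passed. No member passed 2-fold between libraries under any scaling, prior or filter tried. Log2 ratios between members that changed sign were Myh10 over Myh14 and Myo18b over Myo18a in the kallisto-format tables, at -0.05 and -0.04, and Mylk4 over Mylk2 on complete coding transcripts, at -1.00. Between libraries, Mylk2 at -0.13 and Mylk4 at -0.05 changed sign with library totals. With spike-in totals Myh14 at -0.15, Myo18a at -0.14 and Mylk3 at -0.04 did as well. Myh10, at -0.01 with TMM, was at 0.05 with kallisto-format counts. The change of Mylk4 over Mylk2 follows from leaving out Mylk4-204. Those with library totals and spike-in totals follow from the scaling, which shifts all genes alike. The cause of the other changes was not tested. No paired analysis was possible because there is 1 group. With 2 libraries an SD has 1 degree of freedom, and Mylk3, at 40 and 48 counts, is limited by depth.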
